A study of Mus musculus with 36 samples.

Results

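The genes described here encode the proteins of the mitochondrial ribosome. They were chosen by name alone, as every gene symbol made of Mrpl or Mrps and a number in the 6 gene tables, with 1 pseudogene symbol (Mrpl23-ps1) left out. The rule gave 78 genes, of 16060 genes listed in at least 1 of these tables. Of the 78, 49 are named for the large subunit and 29 for the small subunit, and all 78 were measured in all 6 tables. The libraries came from liver and from iWAT, the inguinal white fat under the skin, of C57BL/6J mice after 16 weeks on a diet. The diets were calorie restriction (CR), time-restricted feeding without calorie restriction (TR) and ad libitum feeding (AL, the controls). There were 6 libraries of each diet in each tissue, 36 in all from 20 mice, of which 16 gave both tissues. The comparisons ask how far fasting alone resembles calorie restriction in its effect on transcription. The sources used here do not give the sex of the mice, their age at the start or the hour of sampling, so time since the last meal cannot be told apart from the diets.

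Mitochondria carry a small genome of their own, and its messages are translated inside the organelle by a dedicated ribosome. The RNAs of that ribosome are transcribed in the mitochondrion, while all of its proteins are encoded in the nucleus, made in the cytosol and imported. Its products are core subunits of the respiratory chain and of ATP synthase, so its proteins and the nuclear respiratory chain subunits have to meet in the same organelle. The small subunit reads the message, and the large subunit joins the amino acids and is tethered to the inner membrane, where the products are inserted. White fat holds fewer mitochondria than liver, and more when thermogenic (beige) fat cells develop in it.

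The values are the authors' deposited comparisons, fitted with edgeR on read counts per gene. Each gives a log2 fold change (1 unit is a doubling), the mean level over the libraries compared in log2 CPM (the count relative to the size of the library), and a p adjusted over all genes of the table (FDR). A gene is said to have risen or fallen where that FDR is under 0.05. Values per library are not in these tables, so the spread between mice and the number of mice showing a direction cannot be given, and the depth of each library is unknown. The errors printed are approximate standard errors (SE), taken from the fold change and its likelihood-ratio statistic. Their median over the 78 genes was 0.26 for CR minus AL and 0.29 for TR minus AL in iWAT, and 0.12 for each in liver. A change of a given size was therefore easier to call in liver. CR minus AL and TR minus AL share the same AL libraries, so that these comparisons are not independent of each other.

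Promoters of 4 of the genes are shown as examples, picked with their changes known. Mrps2 had the smallest adjusted p of the 78 in iWAT under TR, and Mrpl42 under CR. Mrpl17 is among the genes that differed between tissues, and Mrps21 had the smallest adjusted p in liver. Each is the RefSeq window of GRCm38.p6 from 250 bases before to 50 bases after the annotated start, 5′ to 3′ on the gene's strand. Capitals mark 3 core motifs, searched on both strands: GCATGCGC of nuclear respiratory factor NRF1, CCGGAAG of ETS factors such as GABP, and AAGATGGCG of YY1. The windows lie at chr2:28467816-28468115 (plus strand, Mrps2), chr10:95501900-95502199 (minus strand, Mrpl42), chr7:105811038-105811337 (minus strand, Mrpl17), chr3:95871465-95871764 (minus strand, Mrps21).
Mrps2: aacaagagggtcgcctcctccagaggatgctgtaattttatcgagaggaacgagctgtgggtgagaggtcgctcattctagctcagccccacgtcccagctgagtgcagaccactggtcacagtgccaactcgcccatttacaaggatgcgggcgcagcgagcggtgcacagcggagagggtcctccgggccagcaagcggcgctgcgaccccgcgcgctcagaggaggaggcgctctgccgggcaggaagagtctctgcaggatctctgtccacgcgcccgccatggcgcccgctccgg
Mrpl42: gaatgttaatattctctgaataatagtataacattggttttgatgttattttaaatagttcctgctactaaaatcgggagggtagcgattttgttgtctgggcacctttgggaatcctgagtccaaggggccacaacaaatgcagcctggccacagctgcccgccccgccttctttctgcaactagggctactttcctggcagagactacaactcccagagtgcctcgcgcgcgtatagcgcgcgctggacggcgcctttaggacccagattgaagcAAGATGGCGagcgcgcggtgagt
Mrpl17: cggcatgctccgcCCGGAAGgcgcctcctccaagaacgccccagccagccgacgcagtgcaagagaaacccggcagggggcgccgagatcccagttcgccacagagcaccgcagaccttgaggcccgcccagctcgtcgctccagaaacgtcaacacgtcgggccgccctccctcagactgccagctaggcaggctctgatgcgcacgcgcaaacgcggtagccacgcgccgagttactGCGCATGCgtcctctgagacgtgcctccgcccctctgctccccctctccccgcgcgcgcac
Mrps21: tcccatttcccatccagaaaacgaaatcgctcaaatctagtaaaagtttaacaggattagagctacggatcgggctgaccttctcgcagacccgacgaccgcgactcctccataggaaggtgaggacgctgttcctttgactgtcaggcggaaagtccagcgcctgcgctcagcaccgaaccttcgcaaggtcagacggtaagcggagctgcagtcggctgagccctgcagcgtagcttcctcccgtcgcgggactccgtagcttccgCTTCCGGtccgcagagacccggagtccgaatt

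Mrpl17 held an ETS core and an NRF1 core, Mrps21 an ETS core and Mrpl42 a YY1 element just after the start. None of these letters was in the Mrps2 window, or in the first window of Mrpl12 or Mrpl16, which are not shown. Of the 78 genes, 69 were matched to a RefSeq promoter, with 75 windows. The ETS core was in 34.7% of these 75 windows, against 11.6% of the 21263 windows of all protein-coding genes. The NRF1 core was in 10.7% against 3.52%, and the YY1 element in 10.7% against 1.83%. Genes that rose in iWAT under TR had 17 windows, which cover 16 of the 20 such genes. The others, Mrpl15, Mrpl19, Mrpl38 and Mrps35, had no matched promoter. Of the 17 windows, 5 held the ETS core (29.4%), 3 NRF1 (17.6%) and 2 YY1 (11.8%). In the 58 windows of the other members the shares were 36.2%, 8.62% and 10.3%. A match describes the letters only, and an ETS core followed by a YY1 element can share the letters AAG.

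In iWAT, the authors' deposited table of CR minus AL listed 6 of the 78 genes as risen (7.69%) and 0 as fallen, where 3.52% of all 15295 genes tested had risen and 3.78% had fallen. The TR minus AL table listed 20 of 78 as risen (25.6%) and 0 as fallen, where 4.76% of 15356 genes had risen and 5.24% had fallen. The log2 fold change was above 0 for 76 genes under CR and for all 78 under TR. Its median was 0.49 under CR and 0.68 under TR, against 0.02 and -0.04 over all genes. At an unadjusted edgeR p under 0.05, 34 genes were higher under CR and 49 under TR, and none was lower under either diet. Most members therefore lay between no change and a doubling and short of the adjusted threshold, with a minority past it. Counts at an unadjusted p, here and below, are given without the share of all genes at that cut.

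**Figure D1:**
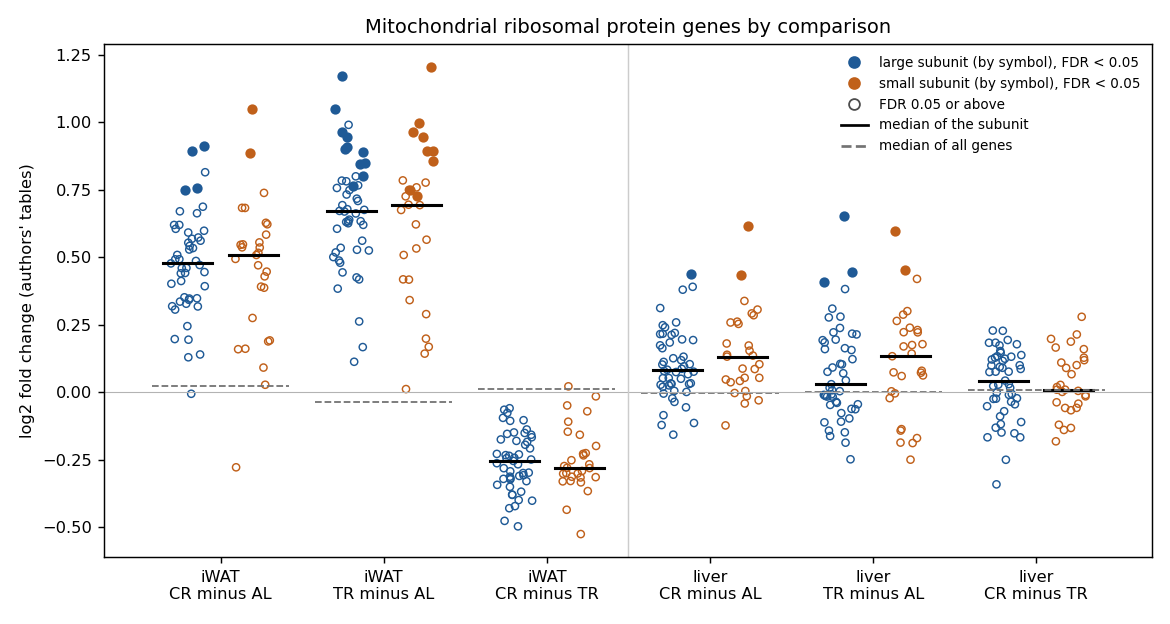
Log2 fold change (y axis, authors' deposited tables) of the 78 mitochondrial ribosomal protein genes in the 6 comparisons (x axis), large subunit in blue and small in orange, each dot 1 gene, filled where FDR is under 0.05. Black bars are subunit medians and dashed grey lines the median of all genes; both iWAT clouds against AL stand above the grey line, with 6 and 20 filled dots, and the liver clouds lie around it with 3 and 5.

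The libraries are bulk tissue, in which more mitochondria-rich cells and more of these messages per cell cannot be told apart. Genes that mark other cell types moved with diet in the same iWAT tables, and their part in these results was not tested. Of 8 brown and beige fat markers, 7 rose under CR and 7 under TR, with a summed approximate level of 561 CPM in CR and 492 CPM in TR, against 57.1 CPM in AL. The 9 hepatocyte markers summed to 198 CPM in CR, 6684 CPM in TR and 1044 CPM in AL, and 8 of them fell under CR and 0 passed under TR. The 10 skeletal muscle markers summed to 5966 CPM in CR, 362 CPM in TR and 2604 CPM in AL, with 0 past the threshold under CR and 4 fallen under TR. An approximate level is always above 0 for a measured gene, so it cannot show whether a marker was absent in AL. Macrophage markers summed to 894 CPM in CR, 820 CPM in TR and 1237 CPM in AL, with 2 of 7 fallen under CR and 3 of 7 under TR. Lymphocyte markers summed to 662 CPM in CR, 540 CPM in TR and 313 CPM in AL, and all 8 lay above 0 under both diets, with 0 past the threshold. Of the mammary epithelial markers, 0 of 2 measured passed under CR and 0 of 4 under TR. Adipocyte markers summed to 26523 CPM in CR, 31859.5 CPM in TR and 26941 CPM in AL, as the tissue label has it. In liver libraries hepatocyte markers summed to 141905 CPM in CR, 149680 CPM in TR and 103911 CPM in AL, and none of the muscle markers was listed.

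Approximate group means were worked out from the mean level and the fold change in the authors' deposited tables. Together the 78 genes made up 3480.3 CPM in iWAT of CR mice and 3945 CPM in TR mice, against 2505 CPM in AL mice. In liver the sums were 2110.1 CPM in CR and 2073 CPM in TR, against 1954 CPM in AL. The iWAT sums of both diets thus lay further above AL than the liver sums did. In AL mice, 59 of the 78 genes took a larger share of the reads in iWAT than in liver, with a median log2 ratio of 0.36. The ratio was lowest for Mrps2 (-0.80) and highest for Mrps6 (3.17). Slc5a3 shares exon sequence with Mrps6 on the same strand, so reads of these genes cannot be told apart with certainty. Its mean level over CR and AL libraries was 6.19 log2 CPM in iWAT and 2.58 in liver, and its part in the Mrps6 ratio was not tested. Tissues were normalized in separate tables, so the iWAT to liver ratios carry no test. The same ratio over all genes is not given, so a general offset between the tissues cannot be told apart from these values.

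Among large subunit genes in iWAT, 4 of 49 rose under CR and 11 of 49 under TR. Mrpl12, on chromosome 11, encodes the stalk protein that recruits translation factors and also binds the mitochondrial RNA polymerase. Its approximate level was 103 CPM in CR and 121 CPM in TR, against 54.6 CPM in AL. The authors' deposited tables gave log2 fold changes of 0.91 ± 0.29 under CR (edgeR adjusted p = 0.0312) and 1.17 ± 0.34 under TR (adjusted p = 0.0117). It was the highest of the large subunit genes under both diets. An uncharacterised gene (Gm16755) overlaps it on the other strand, and the counting is not stated to use strand.

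Mrpl42, which encodes a protein found in mitochondrial but not bacterial ribosomes, had the smallest adjusted p under CR. It stood at 91.5 CPM in CR and 94.97 CPM in TR, against 49.3 CPM in AL. In the authors' deposited tables its log2 fold change was 0.89 ± 0.23 under CR (edgeR adjusted p = 0.00434) and 0.96 ± 0.27 under TR (adjusted p = 0.00796). Mrpl30 rose by 0.76 ± 0.22 under CR (adjusted p = 0.0166) and by 0.95 ± 0.28 under TR (adjusted p = 0.0121). Mrpl16, whose bacterial counterpart sits near the site where amino acids are joined, rose by 0.75 ± 0.25 under CR (adjusted p = 0.0436) and 1.05 ± 0.28 under TR (adjusted p = 0.00436). These 4 genes were the large subunit genes past the threshold under CR, and each was past it under TR as well. Mrpl16 under CR was the call nearest the threshold.

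The other large subunit genes that rose under TR in the authors' deposited table were Mrpl38, Mrpl45, Mrpl10, Mrpl15, Mrpl17, Mrpl19 and Mrpl39. Mrpl38 rose by 0.90 ± 0.27 (edgeR adjusted p = 0.0131). Mrpl45, the protein that holds the large subunit to the inner membrane, rose by 0.85 ± 0.25 (adjusted p = 0.0135). Their values under CR were 0.67 ± 0.27 (adjusted p = 0.107) and 0.69 ± 0.24 (adjusted p = 0.0566), above 0 and short of the threshold. The values of the remaining 5 under TR lay between 0.76 (Mrpl39) and 0.91 (Mrpl19). Mrpl10, which anchors Mrpl12 in the stalk, was among them with 0.85 ± 0.28 (adjusted p = 0.0277). Mrpl34 had a fold change of 0.99 ± 0.41 under TR and was not called (adjusted p = 0.106), so the size alone did not decide which genes passed. The 72 genes of both subunits not called under CR lay between -0.28 (Mrps6) and 0.82 (Mrpl34), and the 58 not called under TR between 0.01 (Mrps25) and 0.99 (Mrpl34).

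Among small subunit genes in iWAT, 2 of 29 rose under CR and 9 of 29 under TR. Mrps2, a small subunit protein with a bacterial counterpart, had the highest fold change of all 78 genes under both diets. On chromosome 2 (28468066 to 28471178, plus strand, GRCm38), it overlapped no other annotated exon. Its approximate level was 61.5 CPM in CR and 67.8 CPM in TR, against 29.7 CPM in AL. In the authors' deposited tables the log2 fold change was 1.05 ± 0.28 under CR (edgeR adjusted p = 0.00518) and 1.20 ± 0.26 under TR (adjusted p = 0.000251). Both amount to a little over a doubling, several times the approximate SE.

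Mrps15 rose by 1.00 ± 0.28 under TR in the authors' deposited table (edgeR adjusted p = 0.00848), and its value under CR was 0.74 ± 0.27 (adjusted p = 0.0703). Mrps21 rose by 0.95 ± 0.30 under TR (adjusted p = 0.0256) and Mrps35 by 0.86 ± 0.28 (adjusted p = 0.0283). Mrps14, Mrps16 and Mrps33 also rose under TR, by 0.75, 0.89 and 0.73. Under CR the values of these 6 genes lay between 0.54 (Mrps14) and 0.74 (Mrps15), and none was past the threshold. No test of the difference between CR and TR called any of them, as given below.

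**Figure D2:**
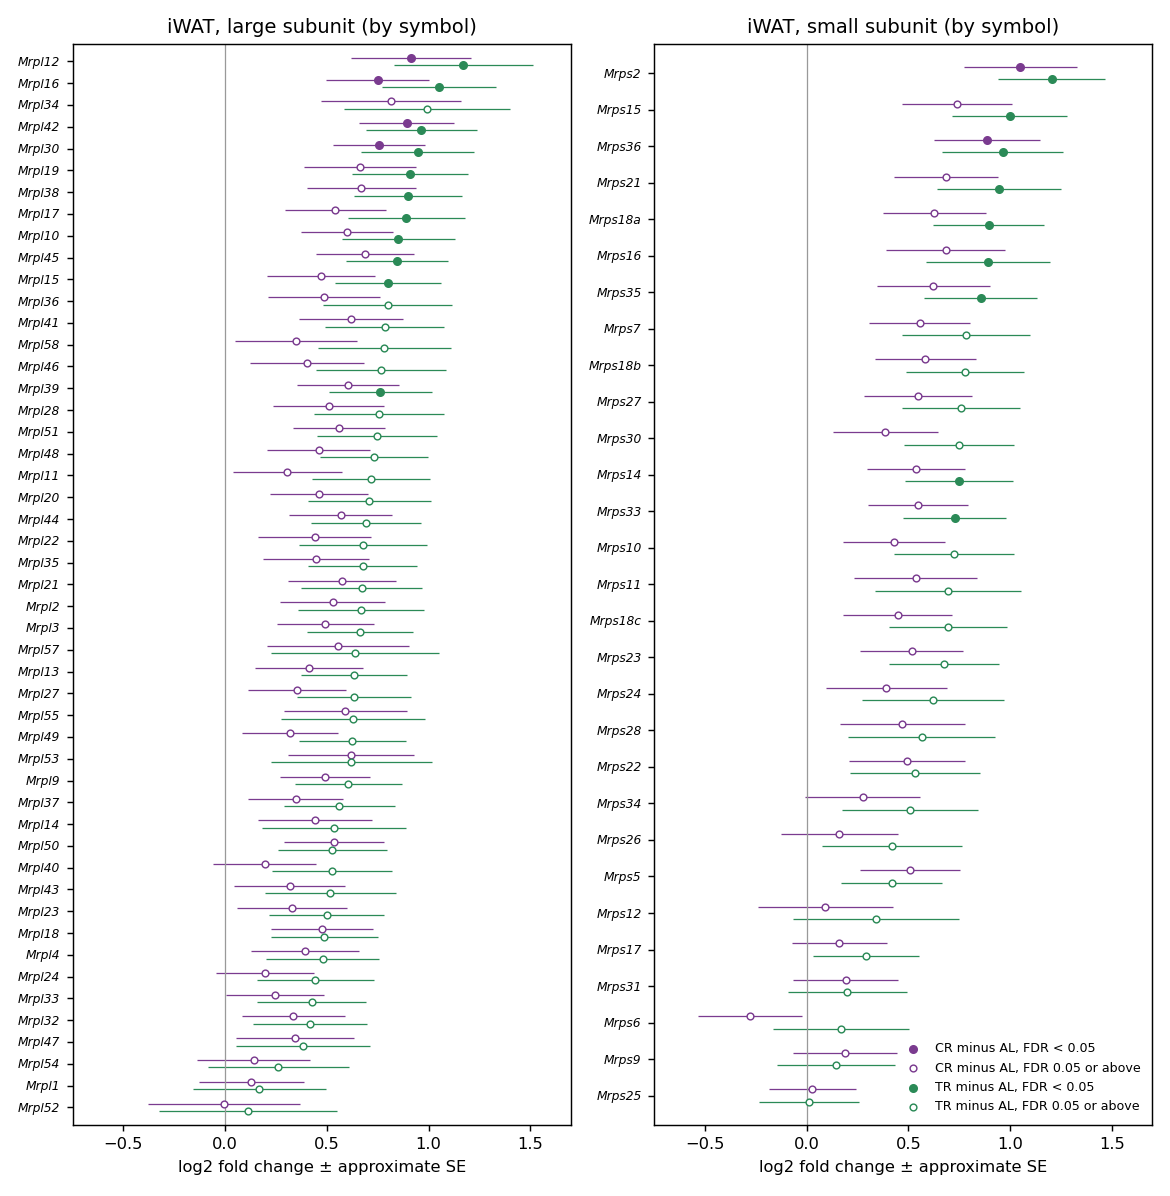
Log2 fold change in iWAT (x axis) of each mitochondrial ribosomal protein gene (y axis, ordered by TR minus AL), CR minus AL in purple and TR minus AL in green, with bars of 1 approximate SE and filled dots where FDR is under 0.05. Mrpl12 (0.91 and 1.17) and Mrps2 (1.05 and 1.20) head their subunits, and Mrps6 (-0.28) and Mrpl52 (-0.01) lie below 0 under CR.

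Some symbols do not say where the protein sits. Mrps36 is known as a subunit of the 2-oxoglutarate dehydrogenase complex of the citric acid cycle, and not as a part of the mature ribosome. It stood at 26.7 CPM in CR and 27.8 CPM in TR, against 14.5 CPM in AL, in iWAT. The authors' deposited tables gave 0.89 ± 0.26 under CR (edgeR adjusted p = 0.0149) and 0.96 ± 0.30 under TR (adjusted p = 0.0193). Mrps36 has 3 genes with pseudogene names in GENCODE M21, so reads may be split among them. Mrps30 and Mrps18a are found in the large subunit in solved structures. Mrps18a rose by 0.89 ± 0.27 under TR (adjusted p = 0.0158), with 0.63 ± 0.25 under CR (adjusted p = 0.113), and Mrps30 had 0.75 ± 0.27 under TR (adjusted p = 0.0526) and 0.39 ± 0.26 under CR (adjusted p = 0.418).

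The relatives of Mrps18a in the small subunit, Mrps18b and Mrps18c, did not pass in iWAT. In the authors' deposited tables Mrps18b had 0.58 ± 0.25 under CR (edgeR adjusted p = 0.142) and 0.78 ± 0.29 under TR (adjusted p = 0.0648), and Mrps18c 0.45 ± 0.27 and 0.69 ± 0.29. Mrpl58, a peptidyl-tRNA hydrolase built into the large subunit that frees stalled chains, had 0.35 ± 0.30 under CR (adjusted p = 0.553) and 0.78 ± 0.33 under TR (adjusted p = 0.112). With members placed by structure and Mrps36 left out, 4 of 51 large and 1 of 26 small subunit genes rose under CR, and 12 of 51 and 7 of 26 under TR.

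A few members stayed close to AL in iWAT. Mrps6 was lowest under CR, at -0.28 ± 0.25 in the authors' deposited table (edgeR adjusted p = 0.581), and had 0.17 ± 0.33 under TR (adjusted p = 0.802). Its approximate level was 74.7 CPM in CR and 101 CPM in TR, against 90.6 CPM in AL. Slc5a3, an inositol transporter gene, shares exon sequence with Mrps6 on the same strand of chromosome 16 and fell by 2.22 under CR (adjusted p = 1.98e-10) and by 2.36 under TR (adjusted p = 8.24e-10), so reads of these genes cannot be told apart with certainty. Mrps25 had 0.03 ± 0.21 under CR and 0.01 ± 0.25 under TR, the lowest value of the 78 under TR. Mrpl52 had -0.01 ± 0.37 under CR and 0.11 ± 0.44 under TR, both with wide errors.

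The subunits are set side by side as a description, with no test. The median log2 fold change in the authors' deposited iWAT tables was 0.48 for large and 0.51 for small subunit genes under CR, and 0.67 and 0.69 under TR. In liver it was 0.08 and 0.13 under CR, and 0.03 and 0.13 under TR. The SD of the fold change over the genes of a subunit was 0.19 and 0.27 under CR and 0.21 and 0.29 under TR in iWAT, and 0.13 and 0.16 under CR and 0.18 and 0.20 under TR in liver. Members with a bacterial counterpart (45 genes) and those found only in mitochondria (32 genes) had iWAT medians of 0.47 and 0.53 under CR and 0.68 and 0.68 under TR. Of the 45, 4 rose under CR and 12 under TR, and of the 32, 1 and 7. Across the 78 genes, the fold change and the mean level of a gene had a Pearson correlation of 0.12 under CR and 0.24 under TR in iWAT and of -0.13 and -0.20 in liver, as a description with genes sharing the same libraries.

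Set against each other in iWAT, CR and TR gave no call among the 78 genes. The deposited iWAT table of this contrast from the authors called 0 of 78 in either direction by edgeR's likelihood-ratio test, with 0 at an unadjusted p under 0.05, where 0.918% of 14699 genes were called. All but 1 of the log2 fold changes lay below 0, with a median of -0.27 against 0.01 over all genes. Mrps6 (-0.53 ± 0.32) and Mrpl58 (-0.50 ± 0.28) were lowest, Mrpl50 was highest of the large subunit (-0.06), and Mrps5 was the exception above 0 (0.02 ± 0.23). The approximate 95% interval lay within 1 log2 unit of 0 for 75 genes, and within 0.5 for 3 genes. A doubling in either direction thus lay outside the interval for these 75, while a difference of the size of the median did not. The CR minus TR values were lower than CR minus AL less TR minus AL by a median of 0.07 in these genes and of 0.06 over all genes.

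In liver, the authors' deposited table of CR minus AL listed 3 of the 78 genes as risen (3.85%) and 0 as fallen, where 5.79% of all 12636 genes had risen and 5.37% had fallen. The TR minus AL table listed 5 of 78 as risen (6.41%) and 0 as fallen, where 9.35% of 12691 genes had risen and 9.54% had fallen. Both shares were below those of all genes. The median log2 fold change was 0.09 under CR and 0.07 under TR, against 0.00 over all genes under each diet. The approximate 95% interval lay within 0.5 log2 units of 0 for 62 of 78 genes under CR and for 59 under TR.

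Mrps21, a small subunit protein with a bacterial counterpart, had the smallest adjusted p in liver. Its approximate level was 32.9 CPM in CR and 32.7 CPM in TR, against 21.5 CPM in AL. The authors' deposited tables gave 0.62 ± 0.13 under CR (edgeR adjusted p = 8.23e-05) and 0.60 ± 0.11 under TR (adjusted p = 2.88e-06). Mrpl38, a large subunit protein without a bacterial counterpart, stood at 45.2 CPM in CR and 45.8 CPM in TR, against 33.4 CPM in AL. It rose by 0.44 ± 0.11 under CR (adjusted p = 0.002) and 0.45 ± 0.11 under TR (adjusted p = 0.000884). Mrps36 rose by 0.43 ± 0.13 under CR (adjusted p = 0.0144) and 0.45 ± 0.13 under TR (adjusted p = 0.00611) and stood at 9.24 CPM in CR and 9.42 CPM in TR, against 6.84 CPM in AL.

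In liver, 2 more large subunit genes rose under TR in the authors' deposited table. Mrpl14 rose by 0.65 ± 0.19 (edgeR adjusted p = 0.00595) and stood at 22.2 CPM in CR and 28.4 CPM in TR, against 17.9 CPM in AL. Its exons overlap those of Tmem63b on the other strand, which had 0.27 (adjusted p = 0.127) in the same table. Mrpl23, a protein at the exit of the peptide tunnel, rose by 0.41 ± 0.13 (adjusted p = 0.016). Under CR the values were 0.31 ± 0.17 for Mrpl14 (adjusted p = 0.277) and 0.38 ± 0.15 for Mrpl23 (adjusted p = 0.0755). The lowest values were those of Mrpl47 (-0.16 ± 0.12 under CR and -0.25 ± 0.11 under TR) and Mrps18b (-0.12 ± 0.10 and -0.25 ± 0.11), and none of these was past the threshold. Mrpl12, highest of the large subunit in iWAT, had 0.10 ± 0.14 under CR and 0.21 ± 0.15 under TR in liver.

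The liver table of CR minus TR, as deposited by the authors, called 0 of 78 genes by edgeR's likelihood-ratio test, where 0.469% of 12593 genes were called. At an unadjusted p under 0.05, 4 genes were higher and 1 was lower in CR. The highest values were those of Mrps18c (0.28 ± 0.13) and Mrpl58 (0.23 ± 0.11), and the lowest of each subunit were those of Mrpl14 (-0.34 ± 0.14) and Mrps11 (-0.18). The median was 0.03, and the approximate 95% interval lay within 0.5 log2 units of 0 for 72 genes and within 1 for all 78.

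**Figure D3:**
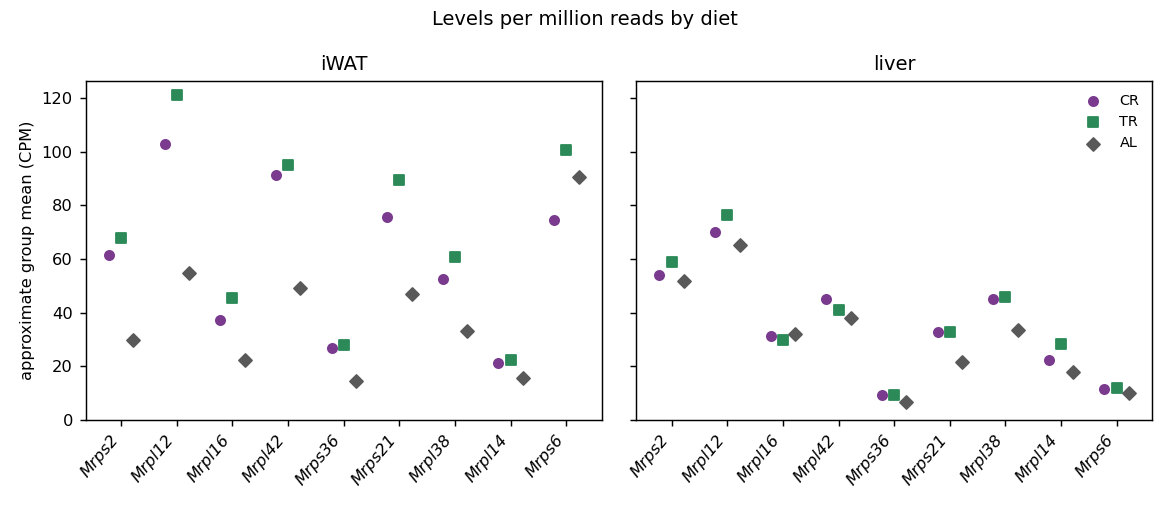
Approximate group means in CPM (y axis, from 0) of 9 mitochondrial ribosomal protein genes (x axis) in iWAT (left) and liver (right), with CR as circles, TR as squares and AL as diamonds; no error is drawn because values per library are not in the tables. Mrps2 stands at 61.5 CPM in CR, 67.8 CPM in TR and 29.7 CPM in AL in iWAT, and at 53.9 CPM in CR, 59.0 CPM in TR and 51.9 CPM in AL in liver.

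The iWAT and liver changes were compared gene by gene with an approximate 2-sided test, adjusted over all genes in both tables, with the tissues of a mouse taken as uncorrelated. For CR minus AL, 1 of 78 genes passed an adjusted p of 0.05 with iWAT higher, a smaller share than the 3.09% of all 12012 genes. The difference was above 0 for 73 of the 78, whether past the threshold or not. The gene that passed was Mrps2, with 1.05 in iWAT and 0.05 in liver, a difference of 1.00 ± 0.30 (adjusted p = 0.0203). For TR minus AL, 12 of 78 genes passed with iWAT higher, where 4.16% of 12201 genes did, and the difference was again above 0 for 73. The median difference over the 78 genes was 0.36 for CR and 0.59 for TR, against 0.03 and -0.01 over all genes. The counts depend on the assumed correlation: with 0.3 they were 7 and 22, and with -0.3 they were 0 and 4. The counts over all genes moved as well, to 652 and 776 with 0.3 and to 215 and 331 with -0.3.

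Mrpl16 differed most between tissues for TR minus AL, with 1.05 in iWAT and -0.11 in liver, a difference of 1.16 ± 0.30 (approximate test, adjusted p = 0.0036). Mrps2 had 1.20 in iWAT and 0.17 in liver, a difference of 1.03 ± 0.29 (adjusted p = 0.00877). Mrpl17 had 0.89 in iWAT and -0.16 in liver, a difference of 1.05 ± 0.31 (adjusted p = 0.0144). Mrps18b had 0.78 in iWAT and -0.25 in liver, neither past the FDR in its own table, with a difference of 1.03 ± 0.31 (adjusted p = 0.0176). Mrpl39 and Mrps33 followed with differences of 0.91 and 0.90. Mrpl19, Mrps27, Mrps30, Mrpl42, Mrps35 and Mrpl10 had differences from 0.86 to 0.95. In 10 of these 12 the liver value lay below 0, with Mrps2 and Mrpl42 above it. The 12 were picked for a large difference, which itself favours low liver values. None of them had fallen in liver at FDR under 0.05, and Mrps35 (-0.004) and Mrpl10 (-0.008) lay close to 0 there. For CR minus TR, 0 of 78 genes passed an adjusted p of 0.05, where iWAT was higher in 0.0505% and lower in 1.19% of 11878 genes. At an unadjusted p under 0.05 in the approximate test, 5 members were lower in iWAT. The median difference was -0.29, and Mrpl58 had the smallest adjusted p (0.603), at -0.50 in iWAT and 0.23 in liver.

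**Figure D4:**
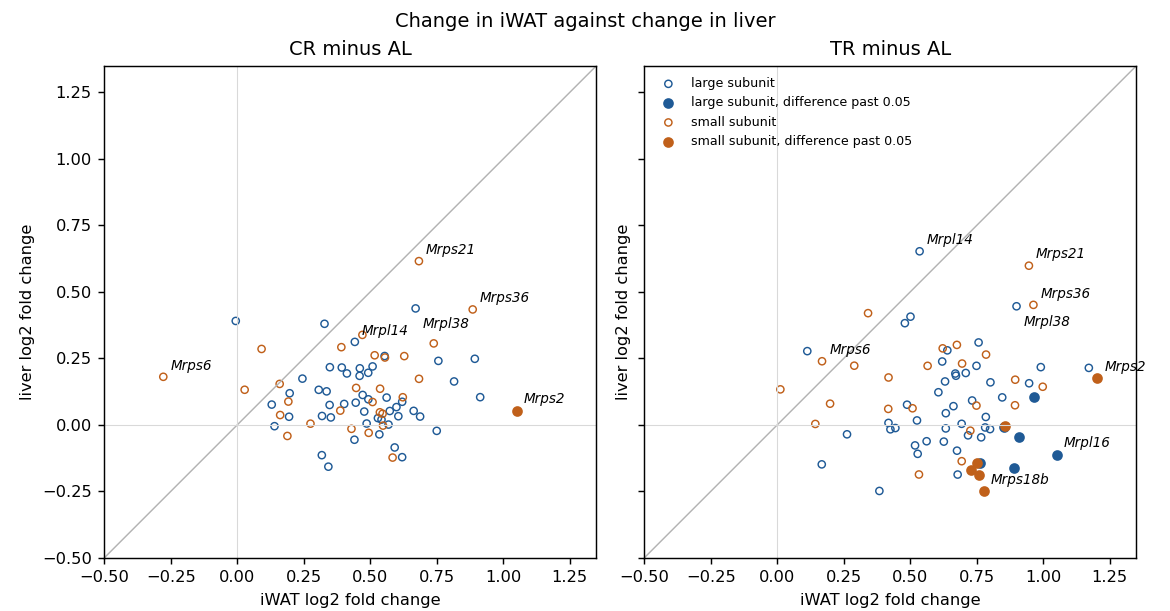
Log2 fold change in iWAT (x axis) against that in liver (y axis) for the 78 genes, CR minus AL on the left and TR minus AL on the right, large subunit in blue and small in orange, filled where the approximate test of the difference passed an adjusted p of 0.05. Most dots lie to the right of the grey line of equal change, and Mrps21 is the gene highest in liver under CR (0.62).

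The transcript tables of the authors gave a coarser view, with 173 to 196 transcripts of these genes per table. In iWAT under CR, 2 of 190 rose (1.05%), where 1.42% of all transcripts had risen and 1.03% had fallen. Under TR, 6 of 196 rose (3.06%), where 2.03% had risen and 1.52% had fallen. Those past the FDR were Mrps2-201 (1.09) and Mrpl42-203 (0.87) under CR. Under TR the same transcripts passed (1.30 and 0.99), with Mrpl12-201 (1.16), Mrpl16-201 (1.05), Mrps15-201 (1.04) and Mrpl30-206 (1.60). No transcript of the 78 genes fell in iWAT, and the transcript with the highest mean level of each gene was above 0 for 75 genes under CR and 77 under TR. In liver, 1 of 175 rose under CR (0.571%) and 2 of 173 under TR (1.16%), where 1.45% and 1.96% of all transcripts had risen and 1.21% and 1.99% had fallen. Mrps21-202 rose by 1.08 under CR and 1.06 under TR, while the more abundant Mrps21-201 had 0.43 and 0.43 without passing. Mrpl15-203 rose by 0.88 under TR in liver, and Mrpl1-202 fell by 7.78 there at a low mean of -0.73 log2 CPM. RSEM shares reads between overlapping transcripts, so these splits are estimates.

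Of the ribosome's proteins that bear other symbols, Dap3, Ptcd3, Chchd1, Aurkaip1 and Gadd45gip1 were measured. In iWAT 0 of these 5 passed under CR or TR, and all 5 were above 0, with medians of 0.50 and 0.55 in the authors' deposited tables. The GTP-binding protein Dap3 had 0.53 (edgeR adjusted p = 0.172) under CR and 0.69 (adjusted p = 0.0841) under TR. In liver Chchd1 rose by 0.42 under CR (adjusted p = 0.0153), and the other 4 lay between 0.22 and 0.32. The ribosomal RNAs made in the organelle, mt-Rnr1 and mt-Rnr2, had 0.18 and 0.21 under CR and 0.36 and 0.46 under TR in iWAT. In liver they had -0.97 and -1.02 under CR and -1.003 and -1.13 under TR, with none past the threshold in either tissue.

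The other genes of mitochondrial translation were counted by role, and no list was tested as a set. Over all genes in iWAT, 3.52% rose under CR and 4.76% under TR, and 3.78% and 5.24% fell. Over all genes in liver, 5.79% and 9.35% rose, and 5.37% and 9.54% fell. The same shares apply to the lists that follow. Of 15 translation factors, 3 rose in iWAT under CR and 2 under TR, with medians of 0.42 and 0.47. Tufm, the elongation factor that brings charged tRNAs, rose in all 4 comparisons with AL in the authors' deposited tables, by 0.83 and 1.07 in iWAT and 0.34 and 0.30 in liver for CR and TR. The translocation factor Gfm1 rose by 0.82 and 0.76 in iWAT, and Taco1, an activator of cytochrome oxidase translation, by 0.89 under CR. In liver Lrpprc, which stabilizes mitochondrial messages, rose by 0.30 under CR, and the initiation factor Mtif2 fell by 0.43 under TR. Of 22 genes that charge tRNAs, 1 rose in iWAT under CR (Vars2, 0.91) and 2 under TR (Gatb, 1.03, and Fars2, 0.95). In liver 2 fell under CR and 3 under TR, with Lars2, the leucyl-tRNA synthetase, lowest at -2.19 ± 0.67 (edgeR adjusted p = 0.0146) and -2.83 ± 0.66 (adjusted p = 0.000389). These errors were wide beside the median approximate SE of 0.15 over all liver genes under each diet. Qrsl1 fell by 0.49 under CR and 0.50 under TR there, Iars2 fell by 0.31 under TR, and Mars2 rose by 0.48 under TR.

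Of 27 genes of ribosome assembly and rRNA modification, 1 rose in iWAT under CR and 2 under TR. Over all genes, 3.52% and 4.76% did. Trub2, a pseudouridine synthase, rose by 0.83 under CR and 1.05 under TR in the authors' deposited tables, and the rRNA methyltransferase Mrm3 rose by 1.13 under TR. In liver C1qbp (0.32) and the methyltransferase Nsun4 (0.36) rose under CR. Under TR Ngrn rose by 0.39 and Tfb1m, which methylates the small subunit's RNA, fell by 0.41. Of 16 genes that copy, transcribe and process mitochondrial DNA and RNA, 0 passed in iWAT under CR and 1 under TR (Elac2, 0.75), at medians of 0.00 and 0.07. In liver Mterf2 fell by 1.32 under CR and by 1.18 under TR, Hsd17b10 fell by 0.63 and by 0.79, and the helicase gene Twnk rose by 0.30 under TR.

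The nuclear regulators of mitochondrial biogenesis were not called in iWAT, with 0 of 12 past the threshold under CR or TR. There Ppargc1a (PGC-1alpha, a coactivator) had 0.46 under CR and 0.33 under TR, Ppargc1b -0.10 and -0.26, and the nuclear receptor gene Esrra 0.68 and 0.49, in the authors' deposited tables. Nrf1 had 0.16 and 0.13, Gabpa, a subunit of the ETS factor GABP, -0.34 and -0.63, and Tfam, which packs mitochondrial DNA, 0.14 and 0.13. At an unadjusted edgeR p under 0.05, 2 of the 12 were higher under CR and 1 under TR. In liver 0 of 12 passed under CR, while under TR Esrra (0.82), Pprc1 (0.54) and Esrrb (0.67) rose and Gabpa fell by 0.38. Over all liver genes, 9.35% rose and 9.54% fell under TR. Esrra was also lower in CR than in TR in liver, at -0.70 (edgeR adjusted p = 0.0473).

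The respiratory chain and the cytosolic ribosome give a scale for the size of these changes. In iWAT, 54 of 78 nuclear respiratory chain and ATP synthase genes rose under CR and 64 of 78 under TR, with medians of 0.93 and 1.13 in the authors' deposited tables. The 78 mitochondrial ribosomal protein genes lay below them, at 0.49 and 0.68, and above the 87 cytosolic ribosomal protein genes, at 0.20 and 0.17, of which 0 passed under either diet. At an unadjusted edgeR p under 0.05, 1 of these 87 was higher under CR, and 2 were higher and 1 was lower under TR. In liver the order was another, with medians of 0.22 and 0.24 for 77 respiratory chain genes and 0.25 for 84 cytosolic ribosomal protein genes under each diet, against 0.09 and 0.07 for the mitochondrial ones. The RNAs of the mitochondrial genome, the templates of this ribosome, had iWAT medians of 0.85 under CR and 0.77 under TR over 15 genes. Of these, 2 rose under CR and 7 under TR, among them mt-Co3, a cytochrome oxidase subunit, at 1.33 and 2.28. In liver mt-Nd3 alone of the 15 passed, at 0.68 under CR and 0.79 under TR.

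**Figure D5:**
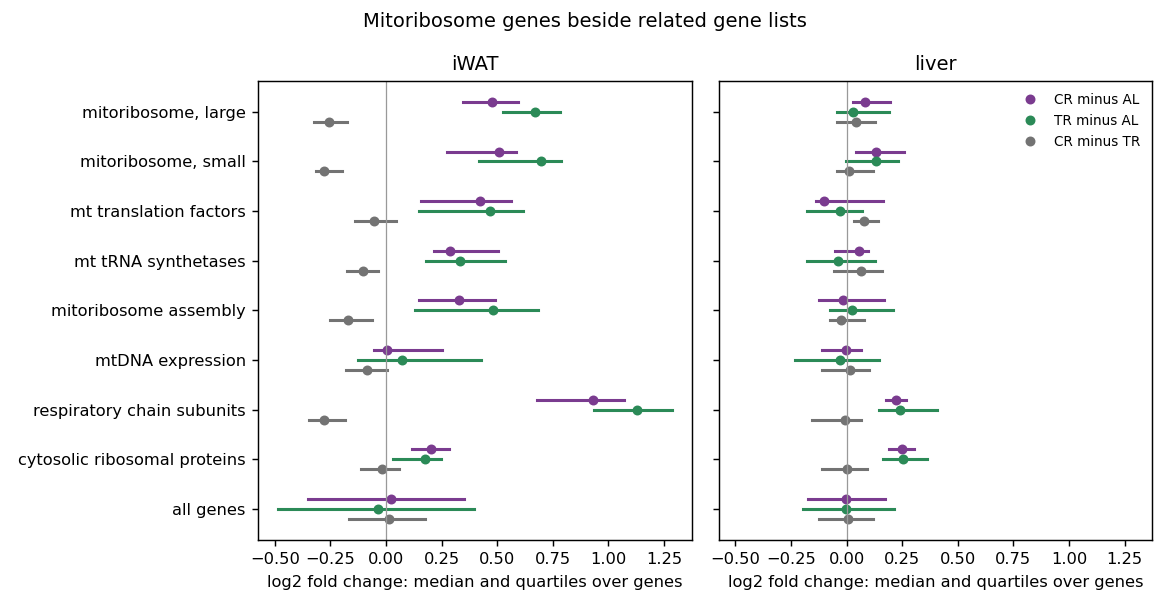
Median (dot) and quartiles (line) of the log2 fold change over the genes of each list (y axis), on a shared scale (x axis), in iWAT (left) and liver (right), for CR minus AL in purple, TR minus AL in green and CR minus TR in grey, from the authors' deposited tables. In iWAT the mitoribosome subunits (medians 0.48 to 0.69 against AL) lie between respiratory chain subunits (0.93 and 1.13) and cytosolic ribosomal proteins (0.20 and 0.17); in liver all medians lie between -0.10 and 0.25.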

How the data were processed

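Bulk RNA sequencing of iWAT and liver (36 libraries, grouped by the labels' diet and tissue) was used as the authors' 12 deposited tables, 6 of genes and 6 of transcripts. Per the labels' protocols, total RNA went into Illumina TruSeq libraries; whether counting used strand is not stated. Per the submitters' processing notes, bcl2fastq 2.20, STAR 2.5.3a and RSEM (version not given) were used with GRCm38.p5. The log2 columns are the log2 fold change and log2 mean CPM of the authors' edgeR models, per the file headers. Per the same headers, the authors' likelihood-ratio statistics are the score columns. Each unadjusted p-value and FDR is the authors' own as deposited. The sources used here give neither filters nor normalization settings.

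Within a diet and tissue, libraries carry different animal numbers in the labels. From these tables, Python 3.11.15 with pandas 2.3.3 and scipy 1.17.1 computed the approximate SE (absolute log2 fold change divided by the root of its statistic), approximate 95% intervals, group means and the iWAT minus liver test (Benjamini-Hochberg adjusted over all shared genes). A check of that test on simulated data is not described here, and its counts moved with the correlation assumed between tissues. An animal number appears under CR and TR labels, and its libraries were counted as different mice. Positions came from GENCODE M21, where all 78 genes matched by identifier, on 17 chromosomes; 28 overlap exons of a gene on the other strand and 8 on the same strand. The design had planned count models; with comparisons only, the deposited FDR under 0.05 was the test. Named are, per comparison and subunit, up to 6 genes per direction with the smallest FDR and the highest and lowest. Also named are up to 6 per tissue difference, 7 genes whatever their values, 6 regulators, and up to 3 per other list. Further names, Mrpl34 among them, were picked with values in view. The class list was corrected for Mrpl47, Mrpl55 and Mrps28 after the data were seen. The genes and lists were chosen with earlier results of these data known. Alternatives were other FDR thresholds, a fold minimum, transcript tables, recentring, a level filter, subunits by structure and assumed correlations.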

Additional observations from a re-analysis of the deposited data

Results flagged for a closer look

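A difference between iWAT and liver under the same diet contrast, past an adjusted p of 0.05 in the approximate test, singled out 13 results among the 78 genes. The contrasts share the same AL libraries, so these results are not independent. For CR minus AL, 1 of 78 genes passed with iWAT higher, where 3.09% of 12012 genes did. It was Mrps2, whose log2 fold change was 1.00 higher in iWAT than in liver. For TR minus AL, 12 of 78 genes passed, where 4.16% of 12201 genes did. For TR minus AL the iWAT value exceeded the liver value by 1.16 for Mrpl16, 1.03 for Mrps2, 1.05 for Mrpl17 and 1.03 for Mrps18b. It exceeded it by 0.91 for Mrpl39, 0.90 for Mrps33, 0.95 for Mrpl19 and 0.95 for Mrps27. For Mrps30 the difference was 0.89, for Mrpl42 0.86, for Mrpl10 0.86 and for Mrps35 0.86. The marker genes of muscle, hepatocytes and beige fat that moved with diet in iWAT stand in the report, and their part in these differences was not tested.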

How the results depend on the processing

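No paired analysis was possible because values per library are not in the tables used here, and leaving out single replicates and other normalizations could not be run for the same reason. None of the 26 calls of named genes and no subunit median changed direction under the alternatives run; among uncalled genes, the most abundant transcript of Mrps25 had -0.07 in iWAT CR minus AL, where the gene had 0.03. With FDR under 0.01, 2 genes rose in iWAT under CR and 4 under TR, and with FDR under 0.10, 10 and 34 did. With FDR under 0.10, 5 genes rose in liver under CR and 1 (Mrps18b) fell under TR. A minimum log2 fold change of 0.5 left 1 gene in liver under CR and 2 under TR. Counting genes by their transcripts gave 2 in iWAT under CR and 6 under TR, and in liver 1 under CR and, under TR, 2 risen and 1 fallen. For the difference between tissues, 7 genes (CR minus AL) and 22 (TR minus AL) passed with a correlation of 0.3, 0 and 4 with -0.3, and 3 and 19 with an adjusted p under 0.10. Over all genes, iWAT was higher in 652 of 12012 and 776 of 12201 with 0.3, and in 215 and 331 with -0.3. For the other thresholds and the fold minimum, the share of all genes is not given. Readjusting over genes at or above 2 in log2 mean CPM kept all 26 calls of named genes. Recentring on the median of all genes kept 25, with Mrpl16 in iWAT under CR no longer past the threshold (adjusted p = 0.0525). The most abundant transcript kept 7 of the 26 calls. Unknown depth and errors near 0.26 to 0.29 in iWAT limit what could be called there.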
